A study of Mus musculus with 40 samples.

Results

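The CC chemokines Ccl2, Ccl3, Ccl4, Ccl6, Ccl9 and Ccl12 and the receptor Ccr1 were followed through RNA-seq of mouse cerebellum. The members were chosen by gene symbol, as the rows of the expression table whose Ensembl gene ID maps to the 7 names, and all 7 were found among 54331 genes. The study compared male C57BL6 mice of 4 genotypes, labelled DKO, CSB, INDY and WT, fed a ketogenic diet (KD) or a standard diet (SD). INDY is the name of the citrate transporter encoded by Slc13a5, and CSB is the DNA repair protein encoded by Ercc6, whose loss in people causes Cockayne syndrome. The 40 libraries were 5 DKO KD, 4 DKO SD, 5 CSB KD, 6 CSB SD, 6 INDY KD, 6 INDY SD, 4 WT KD and 4 WT SD. All groups shared sex, strain and tissue, the ages and the alleles are not given in the sources used here, and the labels do not say whether each library came from a separate animal. If they did not, p-values measure a spread that is partly technical.

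Values were read counts per gene estimated and normalised by the authors, so the depth of each library is unknown. Slc13a5 read at most 0.934 in all 21 DKO and INDY libraries and at least 82.1 in all 19 CSB and WT libraries. Ercc6 averaged 605 ± 98.3 in CSB and DKO libraries and 887 ± 112 in WT and INDY libraries (SD, n = 20 each). Its ranges overlapped, at 382 to 876 in CSB and DKO libraries and 633 to 1070 in WT and INDY libraries. The library labelled WT KD 25 went against its label: Gm6768 read 929 to 1245 in the 20 CSB and DKO libraries, 1041 in WT KD 25 and 0 in the other 19 WT and INDY libraries, and Ercc6 read 633 in WT KD 25, below the 718 to 1070 of those 19. Libraries WT KD 7 and WT KD 12 had mean log2 levels of 9 tested neutrophil genes of 7.98 and 9.82, against 2.13 to 5.79 in the other 38 libraries. DKO SD 1 had a mean log2 level of 12 cerebellum genes of 8.43, against 11.13 to 13.32 in the other 39.

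Chemokines are small secreted proteins that bind G protein-coupled receptors and direct the movement of leukocytes. CC chemokines carry a pair of adjacent cysteines near the amino terminus. In the brain, microglia and border macrophages are sources of CC chemokines, and Ccl3 and Ccl4 are known for induction when microglia are activated. Ccl3 (MIP-1α) binds Ccr1, and Ccl4 (MIP-1β) is its close relative. Ccl6 and Ccl9 are rodent chemokines that act through Ccr1, while Ccl2 and Ccl12 are monocyte chemoattractants that act through Ccr2. In whole tissue, more cells of a type and more RNA per cell cannot be told apart.

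In the GENCODE M21 annotation on GRCm38, the 6 ligands lie on chromosome 11 in 2 clusters, and Ccr1 lies on chromosome 9 on the minus strand, from 123962124 to 123968692. One cluster holds Ccl2 (plus strand, 82035571 to 82037453) and Ccl12 (plus strand, 82101845 to 82103400), with Ccl7 and Ccl11 between them. The other holds Ccl9 (minus strand, 83572919 to 83578636), Ccl6 (minus strand, 83587882 to 83593087), Ccl3 (minus strand, 83647844 to 83649355) and Ccl4 (plus strand, 83662584 to 83664683) in that order. RefSeq promoter windows were matched for 5 of the 7 members, all except Ccl2 and Ccl4. The windows of 3 neighbours in the second cluster are printed, because Ccl3 and Ccl6 differed between genotypes and Ccl9, next to Ccl6, did not pass the test. Each is the 250 bases before the RefSeq start on GRCm38.p6, on the minus strand: chr11:83649379-83649628 for Ccl3, chr11:83593088-83593337 for Ccl6 and chr11:83578637-83578886 for Ccl9. Capitals mark matches, on either strand, to motifs of factors known in myeloid cells.
Ccl3 promoter: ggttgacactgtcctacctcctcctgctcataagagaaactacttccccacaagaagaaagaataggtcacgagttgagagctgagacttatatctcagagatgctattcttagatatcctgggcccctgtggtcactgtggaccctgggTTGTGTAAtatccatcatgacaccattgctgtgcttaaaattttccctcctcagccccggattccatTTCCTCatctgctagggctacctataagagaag
Ccl6 promoter: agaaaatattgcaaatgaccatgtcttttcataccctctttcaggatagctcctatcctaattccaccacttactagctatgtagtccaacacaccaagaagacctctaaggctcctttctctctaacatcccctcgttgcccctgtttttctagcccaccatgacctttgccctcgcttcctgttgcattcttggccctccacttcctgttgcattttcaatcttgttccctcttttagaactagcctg
Ccl9 promoter: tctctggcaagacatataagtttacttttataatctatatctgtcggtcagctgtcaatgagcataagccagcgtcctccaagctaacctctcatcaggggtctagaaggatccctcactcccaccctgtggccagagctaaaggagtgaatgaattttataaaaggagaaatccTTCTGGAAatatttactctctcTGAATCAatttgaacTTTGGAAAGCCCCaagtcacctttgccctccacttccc

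The 4 motifs were searched on both strands: the PU.1 core GAGGAA, the AP-1 motif TGANTCA, the C/EBP motif TTNNGNAA and the NF-kappaB motif. Ccl3 held a C/EBP match from 100 to 93 bases and a PU.1 core match from 33 to 28 bases before the start. Ccl9 held C/EBP matches from 75 to 68 and from 38 to 31 bases, an AP-1 match from 53 to 47 bases and an NF-kappaB match from 35 to 26 bases before the start, the last overlapping the second C/EBP match. Ccl6 held none of the 4 in this window. Among 32851 promoters of the same length, 23.3% held the PU.1 core, 6.75% the AP-1 motif, 36.8% the C/EBP motif and 3.9% the NF-kappaB motif. The longest run of bases shared by the Ccl6 and Ccl9 windows was 13 bases, and the other 9 pairs of the 5 windows shared at most 9.

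Per kilobase of the longest annotated transcript, the mean value over all 40 libraries was highest for Ccl6 (33.1), followed by Ccl12 (22.1), Ccl3 (20.7), Ccl9 (13.3), Ccl4 (8.83), Ccl2 (4.91) and Ccr1 (3.62). Most members were near the lower end of what the table resolves. A value of 10 or more was reached in 40 of 40 libraries by Ccl6 and Ccl9, in 26 by Ccl3, in 25 by Ccl12, in 11 by Ccr1, in 9 by Ccl4 and in 1 by Ccl2. The test covered the 21367 genes that reached a value of 10 in 4 or more libraries, among them 6 of the 7 members. Ccl2 was not tested. Differences are on the log2(value + 1) scale, which understates changes of low genes.

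Ccl3, Ccl4 and Ccl6 rose in CSB and DKO cerebella when the 4 groups of each were averaged over the diets. In this comparison of CSB and DKO with WT and INDY, 170 of 21367 genes (0.796%) passed an adjusted p of 0.05 (limma, Benjamini-Hochberg), 121 higher and 49 lower. This count ran from 120 to 1378 when 1 library was left out, and 3 members were called each time. The counts that moved by over 1.5 times were 276 on leaving out INDY SD 33, 959 for DKO KD 23 and 1378 for INDY KD 22. Of the 6 tested members 3 passed, all higher. The median log2 difference of the 6 was 0.53, against 0.01 over all tested genes. Ccl9, Ccl12 and Ccr1 did not pass.

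Ccl3 reached 12.5 at the lowest, 21.8 at the median and 44.1 at the highest in the 20 CSB and DKO libraries, against 2.94, 8.13 and 18.9 in the 20 WT and INDY libraries. All 20 CSB and DKO libraries lay above the WT and INDY median, and 13 lay above every WT and INDY library. The highest of the WT and INDY libraries was the one labelled WT KD 25. The log2 difference was 1.32 (SE 0.17, 2.5-fold, adjusted p = 3.07e-06), and it was 1.37 (SE 0.17, adjusted p = 1.81e-06) without that library. Without DKO SD 1, WT KD 7 and WT KD 12 it was 1.29 (SE 0.19, adjusted p = 8.32e-05).

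By group, Ccl3 averaged 21.3 ± 6.1 in DKO KD (SD, n = 5), 25.8 ± 2.94 in DKO SD (n = 4), 17.2 ± 4.8 in CSB KD (n = 5) and 27.6 ± 12.3 in CSB SD (n = 6). It averaged 7.89 ± 3.2 in INDY KD (n = 6), 8.11 ± 5.12 in INDY SD (n = 6), 12.6 ± 4.31 in WT KD (n = 4) and 6.98 ± 2.33 in WT SD (n = 4). In the order of the 8 group means on the log2 scale, all 4 CSB and DKO groups stood above WT KD, INDY KD, INDY SD and WT SD. Only the steps between CSB KD and WT KD and between WT KD and INDY KD were larger than the larger SD of the neighbours.

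Ccl4 reached 3.4 at the lowest, 8.78 at the median and 16.3 at the highest in the 20 CSB and DKO libraries, against 0, 1.07 and 12.6 in the 20 WT and INDY libraries. All 20 CSB and DKO libraries lay above the WT and INDY median. The value of 12.6 belonged to the library labelled WT KD 25, and the next highest WT or INDY library, INDY KD 45, read 5.72. The log2 difference was 1.72 (SE 0.26, 3.28-fold, adjusted p = 6.37e-05), and 1.85 (SE 0.25, adjusted p = 9.02e-06) without WT KD 25. Without DKO SD 1, WT KD 7 and WT KD 12 it was 1.57 (SE 0.28, adjusted p = 0.00121). Of the 9 libraries in which Ccl4 reached 10, 8 were CSB or DKO, so it passed the filter through the groups where it was high. It also passed the test when no filter was applied (1.72, SE 0.25, adjusted p = 6.93e-05).

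Ccl6 reached 32.6 at the lowest, 58.1 at the median and 92.4 at the highest in the 20 CSB and DKO libraries, against 23.2, 30.9 and 102 in the 20 WT and INDY libraries. The ranges overlapped, although all 20 CSB and DKO libraries lay above the WT and INDY median. The highest library of all, at 102, was WT KD 12. The log2 difference was 0.62 (SE 0.14, 1.54-fold, adjusted p = 0.0189), and it was 0.68 (SE 0.15, adjusted p = 0.0132) without DKO SD 1, WT KD 7 and WT KD 12. The antisense transcript E230016K23Rik overlaps Ccl6, and no source used here says whether counting used strand, so reads of the pair could not be separated with certainty. E230016K23Rik itself had a log2 difference of -0.21 (SE 0.19, adjusted p = 0.577).

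**Figure D1:**
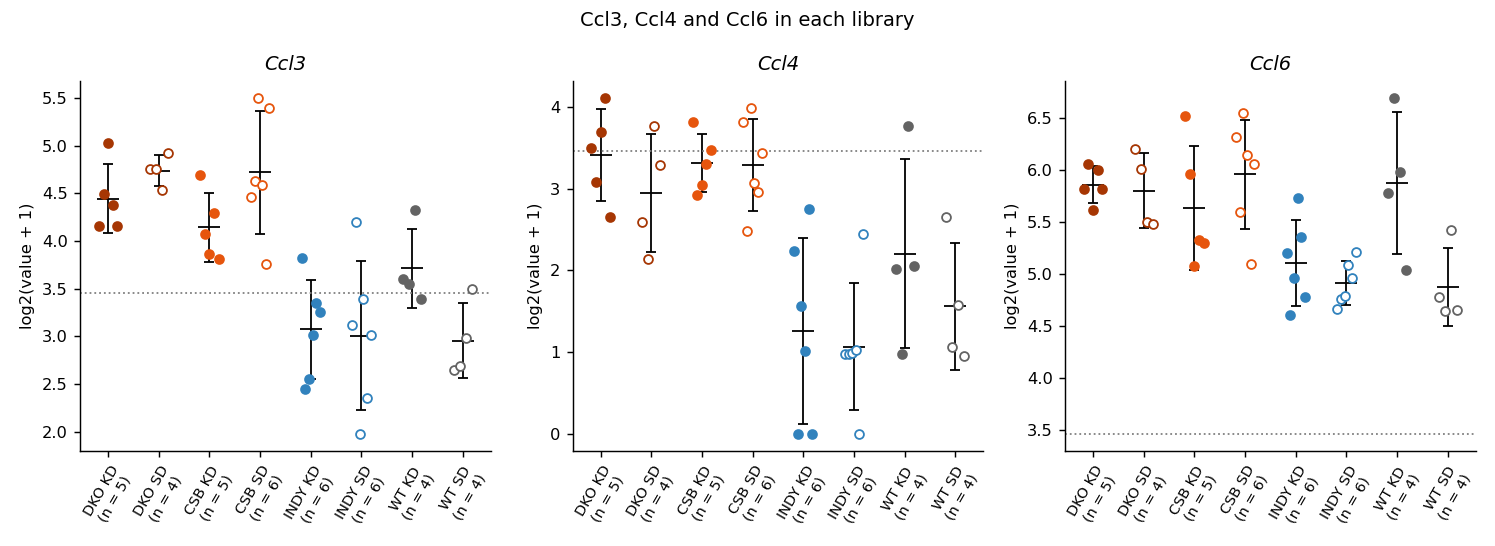
Values of Ccl3, Ccl4 and Ccl6 as log2(value + 1) in each library (points) by genotype and diet, with the mean and SD of each group (bars); filled points are KD, open points SD, and the dotted line marks a value of 10. For Ccl3 the 20 CSB and DKO libraries lie between 12.5 and 44.1 on the linear scale, and for Ccl4 between 3.4 and 16.3.

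Ccl9, Ccl12 and Ccr1 did not show a difference that passed the test, and Ccl2 was not tested. Ccl12 reached 6.7 at the lowest, 13.1 at the median and 25 at the highest in CSB and DKO libraries, against 4.03, 9.13 and 16.8 in WT and INDY libraries. The ranges overlapped widely, and 17 of 20 CSB and DKO libraries lay above the WT and INDY median. The log2 difference of Ccl12 was 0.44 (SE 0.17, adjusted p = 0.144).

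Ccl2 stayed below 10 in 39 of 40 libraries. Its values were 3.25, 9.49, 8.88, 12.7 and 6.41 in DKO KD, 1.01, 7.91, 5.31 and 3.93 in DKO SD, 5.95, 5.62, 7.33, 2.96 and 8.11 in CSB KD, and 5.87 to 7.64 with a median of 7.21 in CSB SD. They were 0.983 to 9.69 with a median of 3.93 in INDY KD, 0.974 to 8.38 with a median of 3.16 in INDY SD, 4.07, 1.98, 4.26 and 0 in WT KD, and 6.41, 2.84, 6.93 and 3.76 in WT SD. The groups overlapped, and no gap between neighbouring group means on the log2 scale exceeded the larger of their SDs. The same was true of the gaps of Ccl4 and Ccl6. The median of Ccl2 was 6.98 in the 20 CSB and DKO libraries and 3.49 in the 20 WT and INDY libraries. Of the CSB and DKO libraries, 17 lay above the WT and INDY median. CSB SD had the narrowest spread of the 8 groups, at 7.05 ± 0.634 (SD, n = 6).

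Ccl9 was detected at 10.1 or more in every library and varied widely within groups. It averaged 26.6 ± 8.18 in DKO KD (SD, n = 5), 67 ± 37.1 in DKO SD (n = 4), 41.6 ± 20.9 in CSB KD (n = 5), 21.9 ± 6.11 in CSB SD (n = 6), 47.5 ± 25.8 in INDY KD (n = 6), 35 ± 14.4 in INDY SD (n = 6), 34.1 ± 16.3 in WT KD (n = 4) and 56.8 ± 28.8 in WT SD (n = 4). Its highest value, 120, was in DKO SD 1, the library with the low cerebellum level. Its lowest was 10.1 in INDY KD 20. Over CSB and DKO against WT and INDY its log2 difference was -0.19 (SE 0.23, adjusted p = 0.708), beside 0.62 for its neighbour Ccl6. Of the 31-base words of Ccl9 transcripts, 3.98% also occur in other genes, so part of its reads could belong elsewhere, against none for Ccl2, Ccl3, Ccl4 and Ccl12.

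Ccr1, the receptor of Ccl3, Ccl6 and Ccl9, read below 10 in 29 of 40 libraries. It read 34.8, 84, 3.15 and 2.14 in WT KD 7, 12, 25 and 28. WT KD 12 and WT KD 7 were the highest of all libraries, and WT KD 25 and WT KD 28 were among the lowest. Elsewhere Ccr1 ran from 1.11 to 20.1. The log2 difference of Ccr1 between CSB and DKO and WT and INDY was -0.44 (SE 0.32, adjusted p = 0.48), and it was 0.1 (SE 0.27, adjusted p = 0.883) without DKO SD 1, WT KD 7 and WT KD 12. In WT KD 7 and WT KD 12, 9 of 10 neutrophil genes and 4 of 7 monocyte genes were above every other library in both, among them S100a8 at 625 and 2984, against 1.86 to 112 in the other 38 libraries. None of 10 border macrophage genes and none of 15 homeostatic microglia genes were above every other library in both. The part of these cells in the Ccr1 values was not tested.

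**Figure D2:**
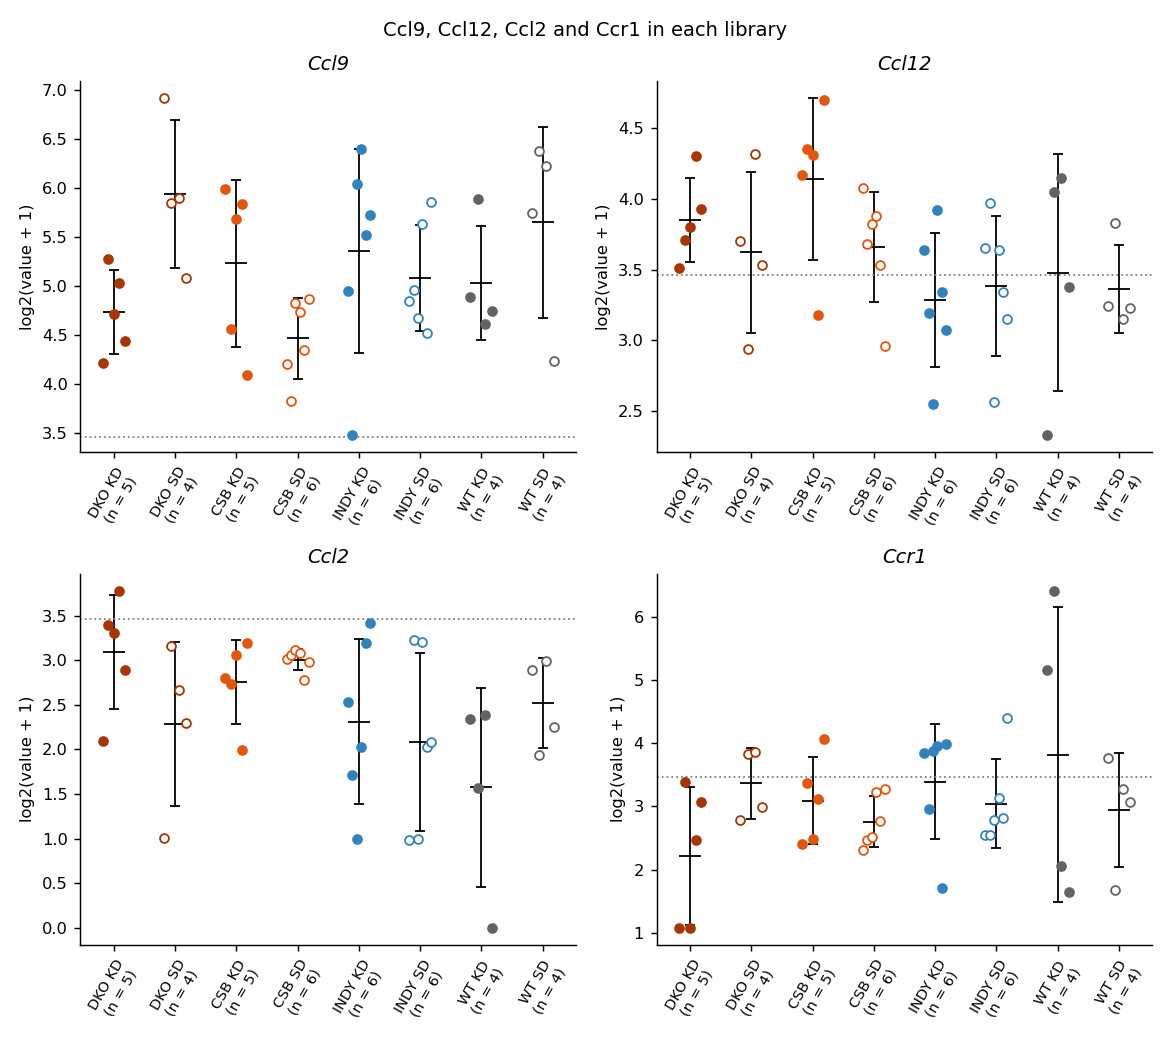
Values of Ccl9, Ccl12, Ccl2 and Ccr1 as log2(value + 1) in each library (points) by genotype and diet, with the mean and SD of each group (bars); filled points are KD, open points SD, and the dotted line marks a value of 10. The highest Ccr1 points are WT KD 12 at 84 and WT KD 7 at 34.8.

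On the standard diet, Ccl3 was the 1 tested member that rose in CSB alone and in DKO. Between CSB SD and WT SD 0.136% of the 21367 genes were called, and 1 of 6 tested members. Ccl3 read 21.1, 23.7, 44.1, 23.1, 12.5 and 41 in CSB SD, against 5.27, 5.46, 6.88 and 10.3 in WT SD. The groups did not overlap. Its log2 difference was 1.77 (SE 0.34, 3.41-fold, adjusted p = 0.00943), which ended as a call without WT SD 39, WT SD 40 or WT SD 41, with adjusted p of 0.0714, 0.0648 and 0.0588. The call also ended in a fit of the compared groups only (adjusted p = 0.0959), when the levels of the forebrain and liver lists entered the fit (0.0544), and with the homeostatic (0.151) or activated microglia level (1). The homeostatic and activated lists themselves had median log2 differences of 0.36 and 0.95 here. Of 20 liver genes, 19 had a positive difference in CSB SD, with a median log2 difference of 3.4, and none passed.

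Ccl4 and Ccl6 pointed the same way in CSB SD without passing. Ccl4 had a log2 difference of 1.73 (SE 0.52, adjusted p = 0.347) and Ccl6 one of 1.08 (SE 0.28, adjusted p = 0.183). Ccl9 was lower, at -1.18 (SE 0.45, adjusted p = 0.594). Without CSB SD 30, the CSB SD library lowest in Ccl3 and Ccl6, Ccl6 passed at 1.25 (adjusted p = 0.0358).

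Between DKO SD and WT SD 5.92% of genes were called and 1 of 6 tested members. Ccl3 read 26, 25.8, 22.1 and 29.3 in DKO SD, all above the 4 WT SD libraries. Its log2 difference was 1.78 (SE 0.37, 3.44-fold, adjusted p = 0.0199), with an adjusted p of 0.0705 without WT SD 39 and 0.0733 without WT SD 41. Without DKO SD 1, WT KD 7 and WT KD 12 it stayed 1.78 (SE 0.42) with an adjusted p of 0.0512. The median log2 difference was 1.74 for the forebrain list, 2.15 for the liver list and -1.34 for the cerebellum list, and with the forebrain and liver lists in the fit Ccl3 was 1.84 (adjusted p = 0.0976). With the homeostatic or activated microglia level it was 1.21 (adjusted p = 0.833) or 0.6 (adjusted p = 0.614). Both of these lists differed between the groups themselves, with median log2 differences of 0.64 and 0.88. The fits with them therefore cannot tell the genotype apart from the lists. Ccl6 was higher by 0.92 (SE 0.31, adjusted p = 0.0575) and Ccl4 by 1.39 (SE 0.57, adjusted p = 0.0959), neither past the threshold.

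With the transporter lost in both groups, DKO SD against INDY SD called 0.0608% of genes and again 1 of 6 tested members. Ccl3 read 7.71, 17.3, 2.94, 9.51, 4.09 and 7.05 in INDY SD, each below the 4 DKO SD libraries. The log2 difference of Ccl3 was 1.73 (SE 0.34, 3.31-fold, adjusted p = 0.0247). The call ended without any 1 of DKO SD 1, DKO SD 34, DKO SD 35, DKO SD 36, INDY SD 11 or INDY SD 32, with adjusted p of 0.0617 to 0.142 and differences of 1.52 to 1.8. It also ended in a fit of the compared groups only (adjusted p = 0.456) and with the activated microglia level in the fit (adjusted p = 0.484). The activated list itself had a median log2 difference of 0.63 here. The differences of Ccl4 (1.88, SE 0.52, adjusted p = 0.306), Ccl6 (0.89, SE 0.28, adjusted p = 0.531) and Ccl9 (0.86, SE 0.45, adjusted p = 0.783) did not pass, and that of Ccl9 was 0.53 without DKO SD 1. Of 18 forebrain genes, 17 had a positive difference, with a median log2 difference of 1.02, none of 12 cerebellum genes did, with a median of -0.83, and none of either list passed. When the levels of the forebrain and liver lists entered the fit, Ccl3 differed by 1.79 (adjusted p = 0.0333), and without the 11 libraries of high forebrain level by 1.95 (adjusted p = 0.276).

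On the ketogenic diet no tested member passed in any of these comparisons by limma. DKO KD against INDY KD called 0.0983% of genes, and 3 of 6 tested members had an unadjusted p below 0.05, against 8.34% of all tested genes. Ccl4 read 10.3, 7.46, 11.9, 16.3 and 5.27 in DKO KD, against 3.74, 0, 1.95, 1.02, 5.72 and 0 in INDY KD. Only DKO KD 47 overlapped with the INDY KD range. Its log2 difference was 2.15 (SE 0.49, adjusted p = 0.0659), and it passed without INDY KD 45 (2.44, adjusted p = 0.0347) or INDY KD 15 (2.34, adjusted p = 0.0431). Ccl3 differed by 1.37 (SE 0.32, adjusted p = 0.0708), with 1.52 and an adjusted p of 0.0431 without INDY KD 15. Ccr1 differed by -1.17 (SE 0.6, adjusted p = 0.607).

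The comparisons with WT KD contain the libraries that stood apart. CSB KD against WT KD called 0.00468% of genes and DKO KD against WT KD 0.00936%, with 1 and 3 of 6 tested members at an unadjusted p below 0.05, against 8.23% and 6.39% of all tested genes. Ccl3 read 24.8, 15.8, 13.5, 18.6 and 13.1 in CSB KD and 16.9, 21.5, 31.7, 19.8 and 16.9 in DKO KD, against 11.1, 10.7, 18.9 and 9.46 in WT KD 7, 12, 25 and 28. The 2 mutant groups overlapped with WT KD only through the library labelled WT KD 25. The log2 difference of Ccl3 was 0.43 (SE 0.35, adjusted p = 0.724) in CSB and 0.73 (SE 0.35, adjusted p = 0.776) in DKO, and 0.63 and 0.93 without WT KD 25.

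Ccl4 differed by 1.11 (SE 0.54, adjusted p = 0.604) in CSB KD and by 1.2 (SE 0.54, adjusted p = 0.776) in DKO KD against WT KD, and by 1.63 and 1.73 without WT KD 25. Ccl6 differed by -0.24 (SE 0.29, adjusted p = 0.829) in CSB KD against WT KD, and by 0.04 without WT KD 12. Ccr1 in DKO KD against WT KD differed by -1.61 (SE 0.67, adjusted p = 0.776), and by 0.36 (SE 0.64, adjusted p = 0.893) without DKO SD 1, WT KD 7 and WT KD 12. These comparisons share the WT KD libraries.

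**Figure D3:**
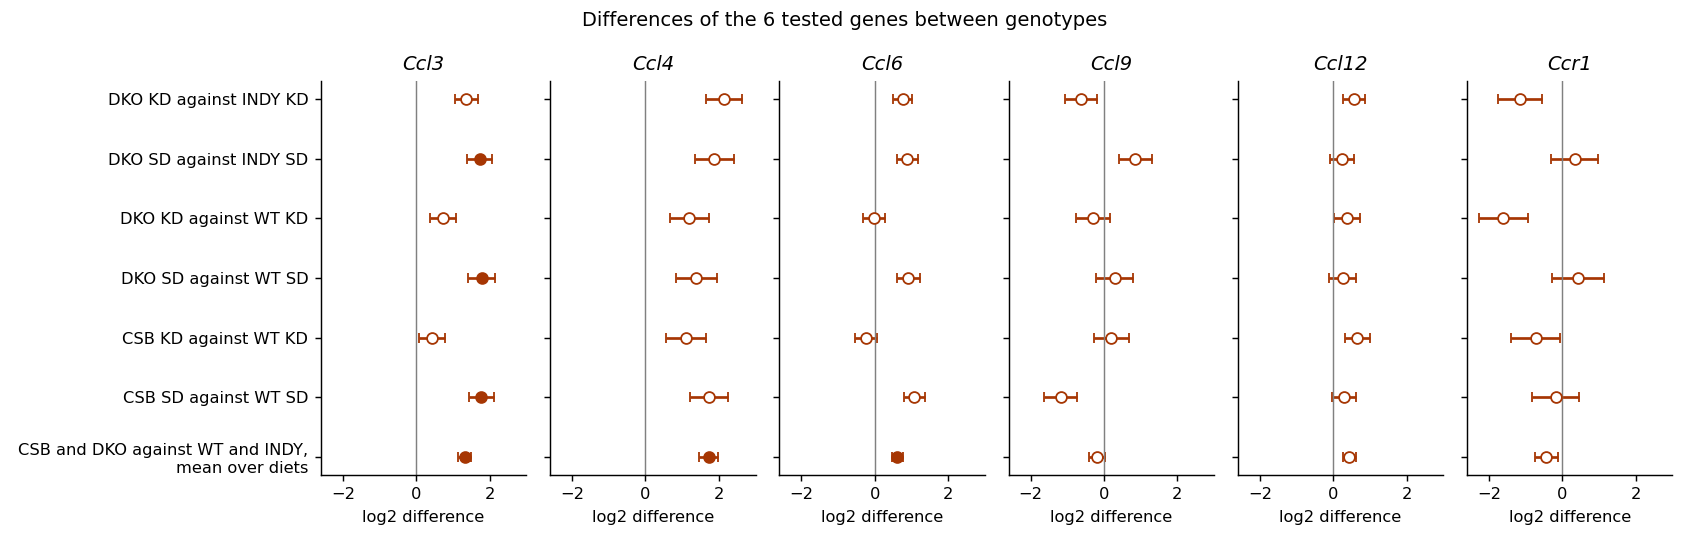
Log2 difference (x axis, on log2(value + 1)) with its SE for the 6 tested genes in 7 comparisons of genotypes, from the fit over all 40 libraries; filled points have an adjusted p below 0.05. Ccl3 is filled in the 3 SD comparisons and, with Ccl4 and Ccl6, in the average over diets, and Ccl9, Ccl12 and Ccr1 are open throughout.

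The diet itself left no tested member called. KD against SD called 0% of genes averaged over the genotypes, 0% within WT, INDY and CSB and 0.00468% within DKO. Averaged over the genotypes, log2 differences of the 6 tested members ran from -0.19 to 0.33, and 0 of 6 had an unadjusted p below 0.05. Within WT, Ccl6 read 53.7, 102, 62.2 and 31.7 in WT KD, against 26.4, 23.9, 41.9 and 24.2 in WT SD, a difference of 1 (SE 0.31, adjusted p = 0.262), and of 0.63 (adjusted p = 0.323) without WT KD 7, WT KD 12 and DKO SD 1. The ranges overlapped through WT KD 28 and WT SD 41. Within DKO, Ccl9 read 17.5, 37.7, 25.2, 31.7 and 20.8 in DKO KD, against 120, 56.6, 58.7 and 32.9 in DKO SD, a difference of -1.2 (SE 0.47, adjusted p = 0.587). Without the libraries that stood apart, the Ccr1 difference within WT turned to -1.09 (SE 0.66, adjusted p = 0.352), against 0.88 (SE 0.7, adjusted p = 0.574) with them.

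The CSB effect is here the difference of CSB and DKO from WT and INDY, as labelled. It was larger on the standard than on the ketogenic diet in the fitted values of Ccl3 and Ccl6. The test of this gap between diets did not pass. The CSB effect on KD minus that on SD was -0.85 (SE 0.34, unadjusted p = 0.0163, adjusted p = 0.532) for Ccl3 and -0.72 (SE 0.28, unadjusted p = 0.0143, adjusted p = 0.532) for Ccl6, and 0% of genes passed this test. For Ccl4 it was -0.18 (SE 0.52, adjusted p = 0.961), smaller than its own SE. Most of the gap lay between CSB and WT, at 1.77 on SD and 0.43 on KD for Ccl3 and 1.08 and -0.24 for Ccl6. DKO against INDY gave 1.73 and 1.37 for Ccl3 and 0.89 and 0.76 for Ccl6. The WT KD group of this contrast holds WT KD 25, and without it the values were -0.75 for Ccl3 and -0.71 for Ccl6. Leaving out WT KD 7, 12 or 28 instead gave -0.87, -0.87 and -0.9 for Ccl3. For Ccl6 it gave -0.74, -0.59 and -0.86.

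Loss of the transporter left no tested member called. INDY and DKO against WT and CSB called 0.014% of genes, and log2 differences of the 6 members ran from -0.42 to 0.18. Ccl3 differed by -0.07 (SE 0.17, adjusted p = 0.873), Ccl6 by -0.17 (SE 0.14, adjusted p = 0.598) and Ccl4 by -0.42 (SE 0.26, adjusted p = 0.516). By limma, 0 of 6 members had an unadjusted p below 0.05 here. INDY SD against WT SD called 0.00468% of genes and INDY KD against WT KD 0.00936%, with Ccl6 at -0.77 (SE 0.28, adjusted p = 0.529) in INDY KD, and at -0.5 (adjusted p = 0.789) without WT KD 12. DKO SD against CSB SD called 0.00468% and DKO KD against CSB KD 0.0281%, with Ccl9 at 1.47 (SE 0.45, adjusted p = 0.26) on SD. The CSB effect with the INDY genotype minus that without it was 0.45 for Ccl3 (SE 0.34), 0.59 for Ccl4 (SE 0.52) and 0.4 for Ccl6 (SE 0.28), each with an adjusted p of 1, and 0% of genes passed either this test or that of the INDY effect between diets.

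The rest of the CC family was measured from the same libraries. Of 15 other CC ligands, 4 reached the filter, and none of them passed between CSB and DKO and WT and INDY. Ccl25, Ccl27a, Ccl19 and Ccl28 differed by -0.02 (SE 0.07), 0.02 (SE 0.06), 0.12 (SE 0.23) and -0.33 (SE 0.24). Ccl5, a chemoattractant of T cells, read 0 to 10.9 and was not tested, and neither were Ccl7, Ccl8 and Ccl11, which lie in the cluster of Ccl2 and read at most 7.57. Means of Ccl5, Ccl7, Ccl8 and Ccl11 were 4.88, 3.85, 2.68 and 2.48 in CSB and DKO libraries. In WT and INDY libraries they were 2.43, 2.11, 2.06 and 1.9.

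Among other CC receptors that reached the filter, none of the following passed. Ccr2, the receptor of Ccl2 and Ccl12, differed by -0.47 (SE 0.22, adjusted p = 0.236), with its highest value of 159 in WT KD 12. Ccr9, Ccrl2, Ackr1, Ackr2 and Ackr4 differed by -0.42, 0.2, -0.04, -0.05 and -0.02, with adjusted p of 0.16, 0.535, 0.872, 0.968 and 0.974.

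Among 25 genes of the other chemokine families, 13 were tested and 1 passed. Cxcl10, an interferon-inducible ligand of Cxcr3, averaged 24.2 ± 10.7 in CSB and DKO libraries and 11 ± 5.44 in WT and INDY libraries (SD, n = 20 each), a log2 difference of 1.03 (SE 0.21, adjusted p = 0.00546). Among 27 genes of signalling from chemokine receptors, Rgs1, which shortens G protein signalling, rose by 1.62 (SE 0.34, adjusted p = 0.00835). Of 22 tested genes of the NF-κB pathway and inflammatory cytokines 1 rose, the receptor Tlr2 (0.55, SE 0.12, adjusted p = 0.018). The median log2 differences of these 3 lists were 0.07, 0.07 and 0.11, against 0.01 over all tested genes.

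Genes of activated microglia moved with Ccl3, Ccl4 and Ccl6. Of 24 such genes, 18 rose between CSB and DKO and WT and INDY and none fell, with a median log2 difference of 0.54. Over all tested genes 0.796% were called in this comparison, and the median was 0.01. The list was chosen with earlier results of these data known, so its count is not independent of them. Cst7, an inhibitor of cysteine proteases, rose by 2.23 (SE 0.21, adjusted p = 9.87e-09), and Itgax, the integrin CD11c, rose by 2.15 (SE 0.2, adjusted p = 6.13e-09). Cd68, a lysosomal glycoprotein, rose by 1.1 (SE 0.11, adjusted p = 9.87e-09), and Clec7a, a receptor for beta-glucans, by 1.77 (SE 0.18, adjusted p = 3.24e-08). The mean log2 level of the 24 genes was 8.77 to 9.76 in CSB and DKO libraries and 7.87 to 9.09 in WT and INDY libraries, with the highest of the WT and INDY libraries in WT KD 25.

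The 15 homeostatic microglia genes had a median log2 difference of 0.2. Their mean log2 level was 8.1 to 9.08 in CSB and DKO libraries and 7.65 to 8.97 in WT and INDY libraries. None of 9 tested border macrophage genes, 7 monocyte genes and 9 neutrophil genes passed, with medians of -0.18, -0.16 and -0.79. Of 10 astrocyte genes 1 rose, the filament protein Gfap (0.71, SE 0.18, adjusted p = 0.0436). No tested gene of the forebrain, cerebellum, choroid plexus and liver lists passed, although the median of the liver list was 0.71.

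With the mean level of the activated microglia list in the fit, none of the 3 chemokines passed. The log2 difference was 0.33 for Ccl3 (SE 0.26, adjusted p = 0.716), 0.65 for Ccl4 (SE 0.46, adjusted p = 0.651) and -0.05 for Ccl6 (SE 0.24, adjusted p = 0.968). With the level of the homeostatic list in its place, Ccl3 and Ccl4 remained past the threshold at 1.17 and 1.53, and Ccl6 was 0.52 (SE 0.14, adjusted p = 0.0906). The activated list itself differs between the genotypes, so the fit with it cannot tell the genotype apart from the list.

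Within groups, Ccl3 also followed the activated microglia level. Over the deviations of the 40 libraries from their group means, Pearson's r was 0.65 (p = 5e-05 by permutation within groups, adjusted p = 0.0028 over 56 relations) and Spearman's rho 0.63 (p = 0.00011, adjusted p = 0.0056, by permutation), and r was 0.6 without CSB KD 13 and INDY KD 15, the libraries farthest from the median. For Ccl4 and Ccl6 r was 0.45 and 0.51, with adjusted permutation p of 0.0617 and 0.0595. Ccl2, not tested between genotypes, had the same r as Ccl4, 0.45 (adjusted p = 0.0617 by permutation). For Ccl12, Ccl9 and Ccr1 r with the activated level was 0.32, 0.23 and 0.08. Ccl9 followed the homeostatic microglia level by Pearson's r of 0.55 (adjusted p = 0.0472 by permutation) but not by Spearman's rho of 0.45 (adjusted p = 0.119 by permutation), and r was 0.42 without the 2 farthest libraries. Ccl3 had r of 0.48 and rho of 0.4 with the homeostatic level (adjusted p = 0.0595 and 0.154 by permutation). For Ccl4 and Ccl6 that r was 0.38 and 0.37. Ccr1 followed the border macrophage level, with r of 0.74 and rho of 0.69 (adjusted p = 0.00476 and 0.0056 by permutation) and r of 0.74 without INDY KD 22 and WT KD 28.

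Members correlated weakly with each other within groups. Of the 21 pairs, Ccl6 with Ccl9, neighbours on the chromosome, had the highest r of 0.48 (rho 0.46, adjusted p = 0.0595 and 0.119 by permutation, r of 0.41 without CSB KD 13 and WT KD 12). Ccl3 with Ccl4, also neighbours, had r of 0.33 and rho of 0.31 (adjusted p = 0.238 and 0.272 by permutation). Ccl2 with Ccl3, which lie in different clusters, had the next highest r after Ccl6 with Ccl9, 0.44 (rho 0.42, adjusted p = 0.0617 and 0.119 by permutation). Ccr1 with the neutrophil level had r of 0.7 and rho of 0.46 (adjusted p = 0.0617 and 0.169 by permutation), and r was 0.52 without WT KD 12 and WT KD 28. Without WT KD 7 and WT KD 12, r of Ccr1 with the neutrophil level was 0.3 and rho 0.27, and r with the border macrophage level was 0.61 and rho 0.6, over 38 libraries.

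**Figure D4:**
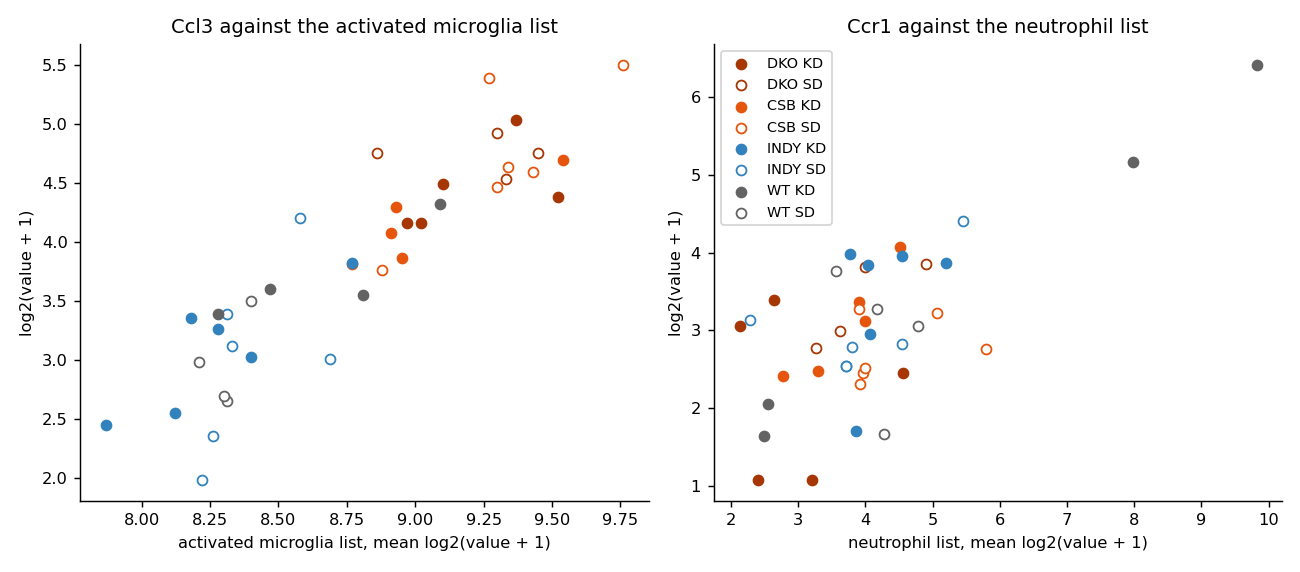
Left, Ccl3 as log2(value + 1) against the mean log2 level of 24 activated microglia genes, and right, Ccr1 against the mean log2 level of 9 tested neutrophil genes, 1 point per library with genotype and diet by colour and fill. The library labelled WT KD 25 lies among the CSB and DKO libraries on the left (Ccl3 at 18.9, list level 9.09), and WT KD 12 and WT KD 7 stand apart on the right with list levels of 9.82 and 7.98.

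Among 17514 genes with a mean of at least 20, those most like each member were ranked by Pearson's r of deviations from the group means over 40 libraries, as a description. Trim59, Gfap and Axl were most like Ccl3, each with r of 0.67. Cyp2s1, Sh3bp1 and 9030624G23Rik were most like Ccl4 (0.67, 0.65 and 0.63), and Myo1f, Vav1 and Rhoa most like Ccl6 (0.68, 0.66 and 0.65). Fam126a, C630043F03Rik and Coa5 were most like Ccl9 (0.69, 0.65 and 0.64), and 9030407P20Rik, Armc7 and Ell2 most like Ccl12 (0.57, 0.56 and 0.52). Anxa1, Ahnak and Gypc were most like Ccr1, each with r of 0.78, a value that includes WT KD 7 and WT KD 12.

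Genes next to the members on the chromosome gave a mixed picture. Beyond Ccl4, Wfdc17 and Wfdc18 differed by 0.48 (SE 0.29, adjusted p = 0.382) and 0.36 (SE 0.21, adjusted p = 0.344) between CSB and DKO and WT and INDY. Near Ccr1, Xcr1, a receptor for XC chemokines, differed by -0.32 (SE 0.12, adjusted p = 0.138). Of the genes tested in the interval from Heatr9 to Wfdc18, which holds Ccl9, Ccl6, Ccl3 and Ccl4, the last 3 were the ones that passed.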

How the data were processed

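Total RNA of cerebellum, extracted with trizol and chloroform and depleted of ribosomal RNA, was sequenced on a DNBseq platform, per the labels. The authors deposited 1 table with a signal for every gene in every library, namely an estimated count of reads after normalisation. Bowtie2, Salmon, DESeq2 and the build mm9 are named in the submitters' processing notes, with no version or role. The median ratio to the geometric mean over genes was 1.0038 in every library, as median-of-ratios scaling gives, and counts could not be recovered, so no counting interval was computed. The unused columns of per-sample values numbered 0.

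Symbols and positions came from GENCODE M21 (GRCm38) by version-stripped ID, which matched 54097 of 54331 IDs, and promoters from RefSeq (GRCm38.p6). Positions are those of this annotation. The genes that reached a value of 10 in 4 or more libraries were tested with limma 3.58.1 in R 4.3.3 on log2(value + 1), a pseudocount of 1, with 1 mean per group for 8 groups, moderated variances with a trend and robust fitting. Calls had a two-sided Benjamini-Hochberg adjusted p below 0.05 over all 21367 genes in each of 20 comparisons. Simulated data with known changes were used to check the fit. Correlations used deviations from group means with p from permutation of libraries within groups. List levels are means of log2(value + 1) over tested genes of a list. Figures were drawn with matplotlib 3.10.9.

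The members and the gene lists were chosen with earlier results of these data known, and so were the comparisons and the forebrain limit. Named genes were the members, Ercc6 and Slc13a5, the tested CC genes, up to 4 called genes of each other list by smallest p, the 3 genes most like each member and neighbours on the chromosome. Gm6768, S100a8, Ccl5, Ccl7, Ccl8 and Ccl11 were named after their values were seen. Alternatives were pseudocounts of 0.5 and 5, no filter, rescaling, compared groups only, leaving out each library, leaving out 11 libraries with a forebrain level above 6.5, and 3 sets of list levels as covariates. Leaving out DKO SD 1, WT KD 7 and WT KD 12 together, or the last 2 from relations of Ccr1, was chosen after seeing the data. Some genes that this rule covers are not reported here.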

Additional observations from a re-analysis of the deposited data

Results flagged for a closer look

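Single libraries far from the rest of their group were sought in 56 groups of member values by Dixon's ratio, and 5 were found, where chance gives about 1 in 20, or 2.8. In INDY SD 33, Ccl4 read 4.43, against 0 to 1.04 in the other INDY SD libraries. In the same library Ccr1 read 20.1, against 4.83 to 7.73 in the others. In WT SD 41, Ccl6 read 41.9, against 23.9 to 26.4 in the other WT SD libraries. In WT KD 12, a library with high neutrophil genes, Ccl9 read 58.2, against 23.5 to 28.7 in the other WT KD libraries. In WT SD 40, Ccl12 read 13.2, against 7.86 to 8.43 in the other WT SD libraries.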

How the results depend on the processing

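Of 1230 alternative values for 42 member differences, 1181 kept their direction and side of the threshold, 26 lost and 7 gained the call and 16 reversed. Over CSB and DKO against WT and INDY, 3 members were called under each alternative run other than the homeostatic microglia level as covariate, which left 2 (Ccl3 and Ccl4), and the activated microglia level, which left 0. The calls over all genes were 1448 without the 11 libraries of high forebrain level (3 of the 4 WT KD), 106 and 12 with the homeostatic and activated levels, and 120 to 1378 leaving out 1 library (959 without DKO KD 23, 1378 without INDY KD 22, 276 without INDY SD 33). For DKO SD against WT SD the member count was 0 with each set of covariates and without DKO SD 1, WT KD 7 and WT KD 12, and 0 to 2 leaving out 1 library. All calls there were 69 with no filter, 694 in the compared groups, 7, 3 and 5 with forebrain and liver, homeostatic and activated levels, 51 without those 3 libraries and 12 to 1826 leaving out 1. For CSB SD against WT SD the member count was 0 in the compared groups and with each set of covariates and 0 to 2 leaving out 1, and all calls were 12, 13 and 1 with the same covariates and 10 to 50 leaving out 1. For DKO SD against INDY SD the member count was 0 in the compared groups, without high forebrain libraries, without those 3 libraries and with the activated level, and 0 to 1 leaving out 1. All calls there were 120 with the activated level, 20 without those 3 libraries and 2 to 14 leaving out 1. For DKO KD against INDY KD the member count was 2 with the homeostatic level and 0 to 2 leaving out 1. Reversed without high forebrain libraries were Ccr1 in DKO KD against WT KD (0.35), in WT KD against WT SD (-1.29) and over CSB and DKO (0.08), Ccl6 in CSB KD against WT KD (0.52), and Ccl3 (0.06) and Ccl6 (0.03) over INDY and DKO. Without those 3 libraries the first 4 were 0.36, -1.09, 0.1 and 0.12, and leaving out 1 library the last ran between -0.52 and 0.04 (without WT KD 12). With the activated level, reversals were Ccl3 in CSB KD against WT KD (-0.02), Ccl6 in DKO KD against INDY KD (-0.03), Ccl6 (-0.05) and Ccl12 (-0.04) over CSB and DKO, and Ccl3 over INDY and DKO (0). The cause of these changes was not tested. No paired analysis was possible because each library number occurs once, so the groups share no number. Ccl2, Ccl4 and Ccr1 were below 10 in most libraries, and the depth behind those values is unknown.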
